A study of Arabidopsis thaliana with 9 samples.

Results

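UGTs are the UDP-glycosyltransferases of Arabidopsis thaliana that are named UGT followed by a group number and a subgroup letter. The family was taken here as every locus whose symbol starts with UGT and a digit and that has a probe set assigned to that gene alone. This gave 47 loci with 1 probe set each, of 13286 loci named by single-gene probe sets, and they fall into 11 UGT group numbers. Of 58 genes with a UGT symbol in the RefSeq table, 11 had no single-gene probe set here, among them UGT74F2, UGT84A2, UGT89B1 and UGT73C6. The rule itself uses no measured value, and all 47 loci entered the fits as reported.

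The study measured RNA from seedlings of 3 genotypes on Affymetrix ATH1 arrays, with 3 arrays per genotype. The jmj24 plants carry a mutation in the jumonji protein gene JMJ24 (At1g09060) and came from a stock centre. The 35S::JMJ24 plants were made with Agrobacterium and carry JMJ24 behind 35S, a viral promoter that is active in most plant cells; the number of independent transformed lines behind them is not stated in the labels. The third genotype, WT, is wild-type Col-0. Seedlings were 9 days old by the extraction notes, whereas the growth notes give 10 to 14 days.

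A UGT transfers a sugar, usually glucose, from a UDP-sugar to a small acceptor molecule. Acceptors include hormones such as auxin, cytokinin, abscisic acid and salicylic acid, flavonoids, lignin precursors, glucosinolate intermediates and foreign compounds. The sugar conjugates are generally more soluble and less active, many are stored in the vacuole, and beta-glucosidases can release the acceptor again.

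Each value is the deposited log2 signal of 1 probe set on 1 array. The 9 arrays were much alike, with correlations of 0.9918 to 0.9976 between pairs. WT replicate 1 deviated most from the mean of its own genotype (root mean square 0.149 over all probe sets). The labels do not say whether replicates came from separate cultures, so p-values measure the spread between these arrays, which may be technical. No probe set was paired with JMJ24 itself, so the genotypes could not be checked at the targeted gene. The seedling label was set against markers, of which 1 of 7 for green tissue, 3 of 4 for root and 0 of 5 for seed and flower were named by a single-gene probe set. RCA (rubisco activase, green tissue) averaged 13.48 in jmj24, 13.53 in 35S::JMJ24 and 13.54 in WT. Of the root markers, the root hair expansin EXPA18 averaged 7.89 in jmj24, 7.9 in 35S::JMJ24 and 7.43 in WT. Its relative EXPA7 averaged 6.19 in jmj24, 6.28 in 35S::JMJ24 and 5.88 in WT. WT replicate 1 lowered both WT means: WT replicates 1, 2 and 3 read 6.95, 7.73 and 7.61 for EXPA18, and 5.53, 6.16 and 5.96 for EXPA7. The root marker PYK10 averaged 13.5 in jmj24, 13.51 in 35S::JMJ24 and 13.58 in WT. The part of these marker differences in the UGT values was not tested, and in whole seedlings fewer cells of a type and less RNA per cell cannot be told apart.

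Most of the family was measurable in seedlings. With the brightest of 27 bacterial control probe sets (5.80) as a mark of background, 37 of the 47 UGT loci had a mean over 9 arrays above it, which is 78.7% of the family, against 73.9% of all 22746 probe sets tested. Probe sets differ in how strongly they bind, so a level is read here only against this mark and never against another gene's level. All 4 measured loci of group 72, all 3 of group 74 and all 5 of group 85 were above the mark, as were the single loci of group 80 (UGT80B1, a sterol glucosyltransferase, 8.34), group 87 (UGT87A2, 10.89) and group 88 (UGT88A1, 11.76). Group 71 had 7 of 9 loci above the mark, with means between 4.8 for UGT71B8 and 9.75 for UGT71C4. In group 73 this held for 4 of 7 loci, with means between 4.63 for UGT73C2 and 10.0 for UGT73B1. In group 76 it held for 6 of 8 loci, with means between 3.8 for UGT76E1 and 9.56 for UGT76E11.

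The loci below the mark included enzymes with well-known substrates. UGT78D3, which adds arabinose to flavonols, averaged 5.71, whereas its relatives UGT78D1, which adds rhamnose to flavonols, and UGT78D2, which adds glucose to flavonoids, averaged 10.98 and 7.96, both above the mark. UGT84B1, which glucosylates the auxin indole-3-acetic acid, averaged 5.31 and its neighbour UGT84B2 averaged 4.39. Of the UGT84A enzymes, which make glucose esters of hydroxycinnamic acids, UGT84A3 averaged 8.71, UGT84A4 6.84 and UGT84A1 5.81, the last of them just above the mark. UGT76D1, which glucosylates dihydroxybenzoic acids, averaged 4.95, and UGT76E1 averaged 3.8. UGT73D1 averaged 5.42 and lay below the mark on every array. Only UGT76E1 and UGT84B2 also lay below the second brightest bacterial control, at 4.61.

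The spread within genotypes was taken as the root mean square deviation, on an array, of a locus from its mean in the same genotype. Over the UGT loci it was 0.13 to 0.134 on the jmj24 arrays, 0.108 to 0.144 on the 35S::JMJ24 arrays and 0.0966 to 0.168 on the WT arrays. Over all probe sets it was 0.116 to 0.13 on the jmj24 arrays, 0.123 to 0.124 on the 35S::JMJ24 arrays and 0.093 to 0.149 on the WT arrays, below the UGT value on every array except 35S::JMJ24 replicate 1. The median deviation of the family from its own means was -0.08, 0.03 and -0.02 on the jmj24 arrays, 0.03, 0.08 and -0.01 on the 35S::JMJ24 arrays, and -0.03, -0.05 and -0.05 on the WT arrays, against -0.01 to 0.02 for all probe sets. The number of UGT loci above their own mean was 16, 29 and 22 on the jmj24 arrays, 32, 36 and 23 on the 35S::JMJ24 arrays, and 19, 11 and 12 on the WT arrays. The counts were thus lower on every WT array than on any 35S::JMJ24 array, while jmj24 replicate 1 lay within the WT range.

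**Figure D1:**
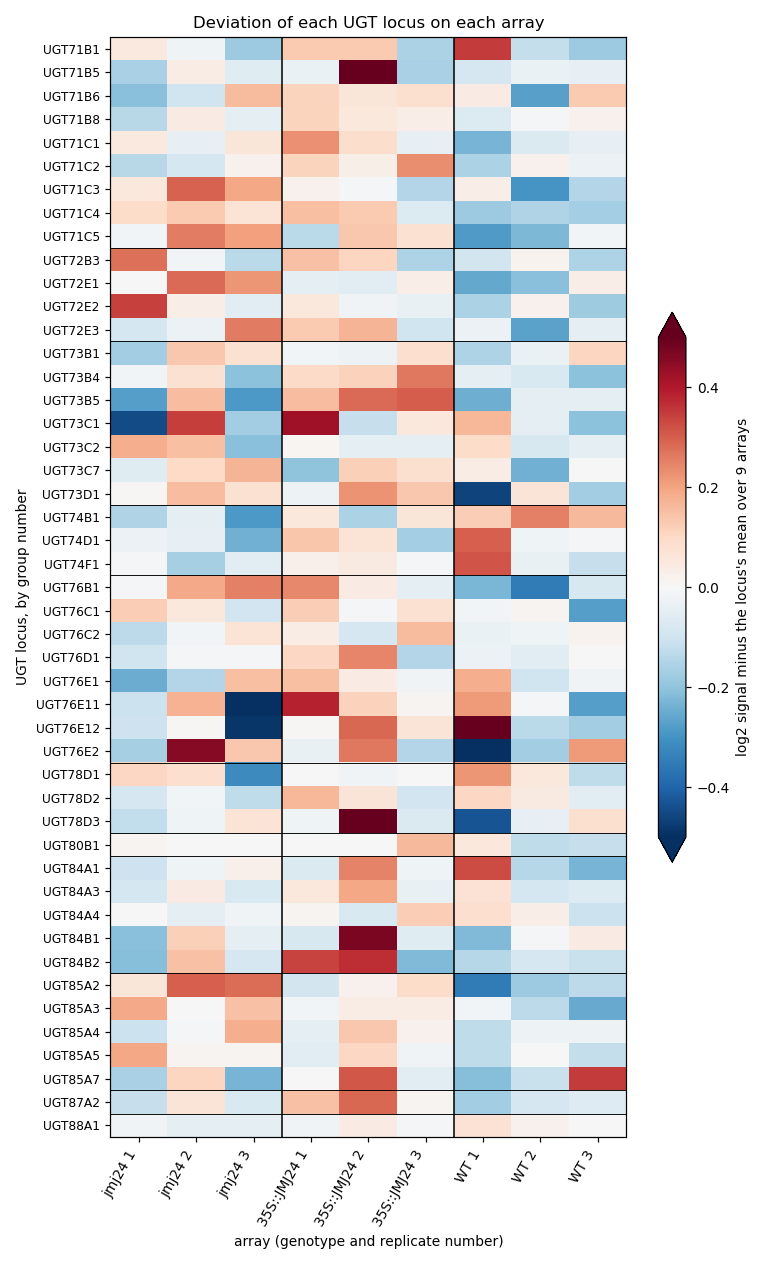
Deviation of each of the 47 UGT loci (rows, by group number) from its own mean over 9 arrays, as a log2 difference in colour, on each array (columns, by genotype and replicate number). On 35S::JMJ24 replicate 2, 36 loci were above their mean, and on WT replicate 2 this held for 11.

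The comparison of jmj24 with WT asks which transcripts differ when JMJ24 is mutated. The largest UGT differences were a mean of UGT85A2, UGT76B1, UGT71C3, UGT71C5, UGT72E1 and UGT76E2 that was 1.24-fold to 1.35-fold higher in jmj24. On the lower side stood UGT74B1, the S-glucosyltransferase of the glucosinolate core pathway, at 0.791 of its WT signal. None of them passed the test. In limma, a linear model that shares information on the spread across probe sets, with Benjamini-Hochberg adjustment over all 22746 probe sets, 0 of 47 UGT loci had an adjusted p under 0.05, beside 1.14% of all probe sets. At an unadjusted p under 0.05 there were 8 UGT loci, 7 higher and 1 lower in jmj24, beside 11.7% of all probe sets (5.46% higher and 6.27% lower). The family as a whole was centred near 0, with 25 loci higher in jmj24 (53.2%, against 52.1% of all probe sets) and a median log2 difference of 0.0408, against 0.00609 for all probe sets. Without jmj24 replicate 2 the median was -0.00492, with 22 loci higher. Log2 differences of the 47 loci ran from -0.34 to 0.44, so none reached 1.5-fold. In 9 loci the 3 jmj24 and 3 WT values did not overlap, 6 higher and 3 lower in jmj24, beside 16.0% of all probe sets (7.49% higher and 8.47% lower).

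UGT85A2 (AT1G22360) had the smallest adjusted p of the family. It read 10.49, 10.73 and 10.71 in jmj24, 10.34, 10.45 and 10.52 in 35S::JMJ24, and 10.08, 10.25 and 10.3 in WT. Both JMJ24 lines lay above all WT arrays without overlap, and jmj24 overlapped slightly with 35S::JMJ24. The log2 difference of jmj24 from WT was 0.44 (SE 0.0898, 95% interval 0.23 to 0.64, 1.35-fold), with a limma adjusted p of 0.0613. Over 17 alternative settings it lay between 0.37 and 0.51 with adjusted p between 0.0124 and 0.223, and 5 of them gave an adjusted p under 0.05: array weights (0.0218), removal of the dimmer 50% of probe sets (0.0364), the replicate number as a block (0.0124), a mean-variance trend (0.0266) and jmj24 replicate 1 left out (0.0427).

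The other UGT85A loci were described beside it. UGT85A3 (AT1G22380) read 6.97, 6.78 and 6.93 in jmj24, 6.77, 6.82 and 6.82 in 35S::JMJ24, and 6.77, 6.65 and 6.53 in WT. The jmj24 values were all above the WT values, with a log2 difference of 0.24 (SE 0.0783, limma adjusted p 0.24). UGT85A5 had a log2 difference of 0.15 with no overlap, UGT85A4 one of 0.08, and UGT85A7 one of -0.11. The median of the 5 loci of group 85 was 0.153, with 4 of them higher in jmj24.

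Of the enzymes of hormone and defence metabolism, UGT76B1 (AT3G11340), which glucosylates isoleucic acid, salicylic acid and N-hydroxypipecolic acid, read 9.28, 9.48 and 9.54 in jmj24, 9.53, 9.33 and 9.24 in 35S::JMJ24, and 9.06, 8.94 and 9.21 in WT. All 6 values of the JMJ24 lines were above the WT values. The log2 difference of jmj24 from WT was 0.36 (SE 0.105, limma adjusted p 0.189). UGT71C3 (AT1G07260), which acts on methyl salicylate, read 7.36, 7.6 and 7.5 in jmj24, 7.33, 7.3 and 7.16 in 35S::JMJ24, and 7.34, 7.01 and 7.16 in WT. The jmj24 values were the 3 highest of the 9, although jmj24 replicate 1 lay only just above WT replicate 1, and the log2 difference was 0.32 (SE 0.0983, limma adjusted p 0.223). UGT71C5 (AT1G07240), which forms the glucose ester of abscisic acid, read 8.96, 9.23 and 9.18 in jmj24, 8.84, 9.11 and 9.05 in 35S::JMJ24, and 8.69, 8.75 and 8.96 in WT. Here the highest WT value met the lowest jmj24 value, and the log2 difference was 0.32 (SE 0.106, limma adjusted p 0.258).

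UGT71C4 (AT1G07250) read 9.84, 9.88 and 9.82 in jmj24, 9.9, 9.88 and 9.68 in 35S::JMJ24, and 9.57, 9.6 and 9.58 in WT. The WT values were the tightest of the 3 genotypes and lay below all 6 others. The log2 difference of jmj24 from WT was 0.27 (SE 0.0703, limma adjusted p 0.145). In the UGT71C subgroup 4 of 5 loci had a higher mean in jmj24, with a median log2 difference of 0.266. In the UGT71B subgroup 0 of 4 did, but all 4 lay close to WT, at -0.06 to -0.01 with a median of -0.0246. UGT71B5 and UGT71B8 were below the background mark. UGT71B6, another abscisic acid glucosyltransferase, had a log2 difference of -0.02.

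Group 72 holds UGT72E1, UGT72E2 and UGT72E3, which glucosylate monolignols and their aldehydes. UGT72E1 (AT3G50740), which acts on coniferyl aldehyde, read 8.8, 9.08 and 9.02 in jmj24, 8.75, 8.74 and 8.83 in 35S::JMJ24, and 8.54, 8.59 and 8.83 in WT. WT replicate 3 lay above the lowest jmj24 value, so the groups overlapped, and the log2 difference was 0.31 (SE 0.098, limma adjusted p 0.23). UGT72E2 (AT5G66690), which acts on coniferyl and sinapyl alcohol, read 9.03, 8.72 and 8.63 in jmj24, 8.74, 8.67 and 8.65 in 35S::JMJ24, and 8.53, 8.71 and 8.51 in WT. Its log2 difference of 0.21 (SE 0.105, limma adjusted p 0.482) was 0.09 without jmj24 replicate 1 and 0.06 without the 3 arrays numbered 1. UGT72E3 had a log2 difference of 0.17 and UGT72B3 one of 0.12, so that all 4 loci of the group had a higher mean in jmj24, with a median of 0.188.

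In group 74 all 3 measured loci had a lower mean in jmj24 than in WT, but this rested in part on WT replicate 1. The median deviation of the group was 0.3, -0.02 and -0.01 on WT replicates 1, 2 and 3. For UGT74D1 and UGT74F1, but not for UGT74B1, WT replicate 1 stood above the other WT arrays. UGT74B1 (AT1G24100) read 9.11, 9.21 and 8.97 in jmj24, 9.31, 9.1 and 9.32 in 35S::JMJ24, and 9.38, 9.51 and 9.42 in WT. All values of both JMJ24 lines were below the WT values, and the log2 difference of jmj24 from WT was -0.34 (SE 0.0853, limma adjusted p 0.128). UGT74D1 (AT2G31750), which glucosylates auxin, read 9.48, 9.47 and 9.27 in jmj24, 9.65, 9.58 and 9.34 in 35S::JMJ24, and 9.81, 9.49 and 9.5 in WT. The jmj24 values were just below the WT values, and the log2 difference was -0.19 (limma adjusted p 0.572). UGT74F1, which acts on salicylic acid, read 6.24, 6.08 and 6.19 in jmj24, 6.27, 6.29 and 6.24 in 35S::JMJ24, and 6.56, 6.21 and 6.13 in WT. The highest UGT74F1 value was that of WT replicate 1, and the log2 difference was -0.13 (limma adjusted p 0.683).

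The remaining loci were read in the same way for jmj24 and WT. The flavonoid enzymes UGT78D1, UGT78D2 and UGT78D3 had log2 differences of -0.09, -0.11 and 0.11. The 3 UGT84A loci each had a log2 difference of -0.02. UGT76C1 and UGT76C2, which attach glucose to nitrogen atoms of cytokinins, had log2 differences of 0.12 and -0.02, and UGT87A2, which is known to affect flowering time, had one of 0.06. UGT88A1 read 11.74, 11.71 and 11.71 in jmj24, 11.74, 11.8 and 11.75 in 35S::JMJ24, and 11.83, 11.78 and 11.76 in WT; the jmj24 values did not overlap with WT, at a log2 difference of only -0.07. UGT73D1 (AT3G53150) read 5.43, 5.58 and 5.5 in jmj24, 5.4, 5.65 and 5.56 in 35S::JMJ24, and 4.96, 5.49 and 5.25 in WT, all below the background mark. Its log2 difference of 0.27 (SE 0.126, limma adjusted p 0.445) was 0.14 without WT replicate 1.

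**Figure D2:**
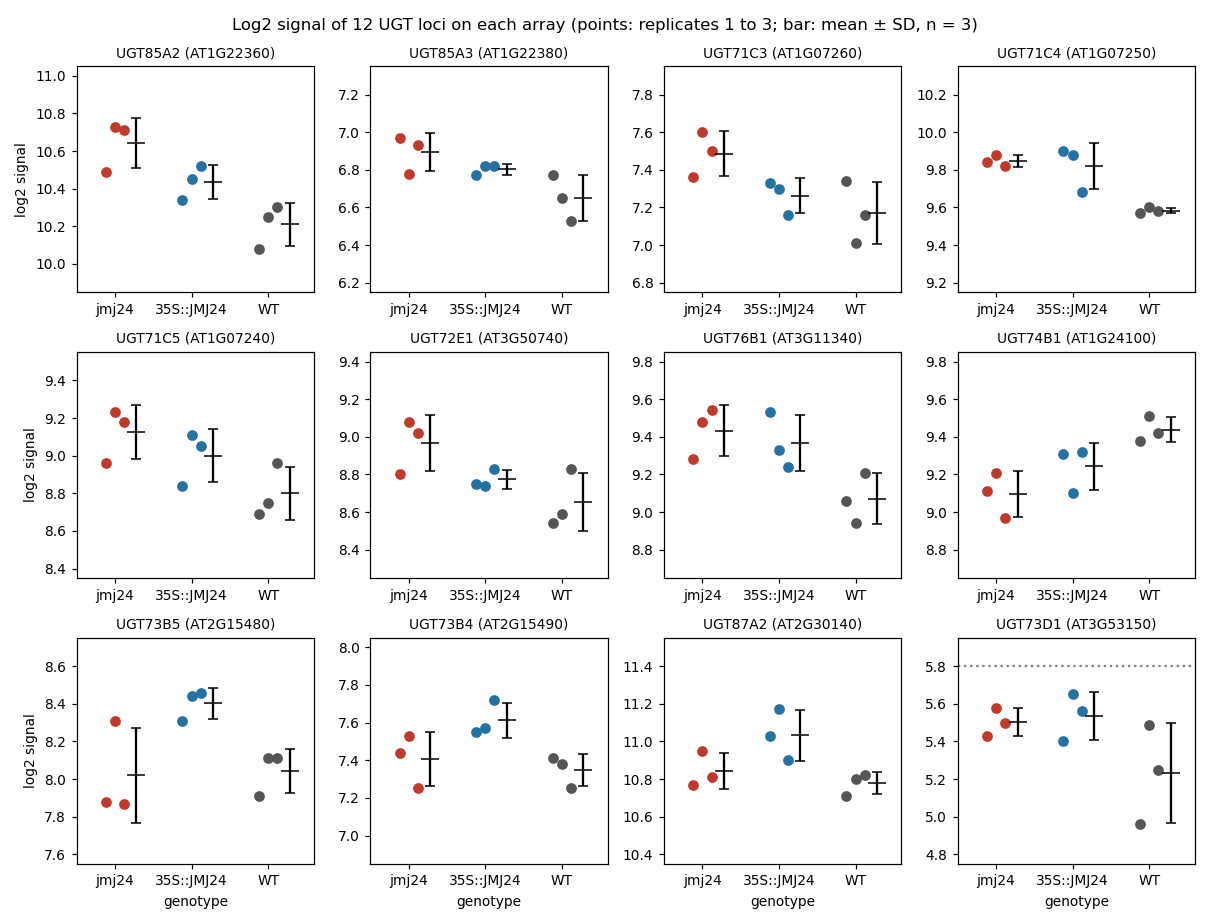
Log2 signal of 12 UGT loci on each array (points, replicates 1 to 3 from left to right) by genotype, with the mean and SD as bars (n = 3) and the background mark of 5.80 dotted where it falls in the panel. UGT85A2, UGT71C4 and UGT76B1 are higher in all arrays of both JMJ24 lines than in WT, UGT74B1 is lower, and UGT73B5, UGT73B4 and UGT87A2 have their highest mean in 35S::JMJ24.

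The comparison of 35S::JMJ24 with WT asks what differs when JMJ24 is driven by the 35S promoter. Of the 47 loci, 41 had a higher mean in 35S::JMJ24 (87.2%, against 57.1% of all probe sets), and 35 to 44 did under the alternatives that kept all 47. The median log2 difference was 0.111, against 0.0202 for all probe sets, and no single locus passed the test. In limma 0 of 47 UGT loci had an adjusted p under 0.05, beside 0.0176% of all probe sets, and the smallest adjusted p of the family was 0.527. At an unadjusted p under 0.05 there were 10 loci, 9 higher and 1 lower in 35S::JMJ24, beside 7.43% of all probe sets (4.98% higher and 2.45% lower). The values did not overlap in 10 loci, 9 higher and 1 lower, beside 11.7% of all probe sets (7.25% higher and 4.48% lower).

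The count of higher loci varied with the scaling and with single arrays. After a further quantile normalization 37 of 47 loci were higher, against 50.1% of all probe sets, and after subtracting array medians 38 were higher, against 50.5%. With 35S::JMJ24 replicate 2 left out, 35 loci were higher at a median log2 difference of 0.0759, and with 35S::JMJ24 replicate 3 left out, 40 were higher at a median of 0.144. Among the 37 loci above the background mark, 32 were higher. The WT arrays are the same as in the comparison with jmj24, so the values of both comparisons are not independent of each other.

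By group, all 9 loci of group 71, all 4 of group 72, all 8 of group 76, all 5 of group 84 and all 5 of group 85 had a higher mean in 35S::JMJ24 than in WT. The group medians were log2 differences of 0.168 for group 71, 0.125 for group 76, 0.115 for group 72, 0.0954 for group 84 and 0.0939 for group 85. In group 84 this leaned on 1 array, with median deviations of 0.01, 0.25 and -0.04 on 35S::JMJ24 replicates 1, 2 and 3. UGT84B1 and UGT84B2 of this group were also below the background mark. Group 73 had 6 of 7 loci higher at a median of 0.151. The 6 loci with a lower mean were UGT74B1, UGT74D1, UGT74F1, UGT73C2, UGT78D1 and UGT88A1, among which only UGT74B1 differed by more than 0.1.

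**Figure D3:**
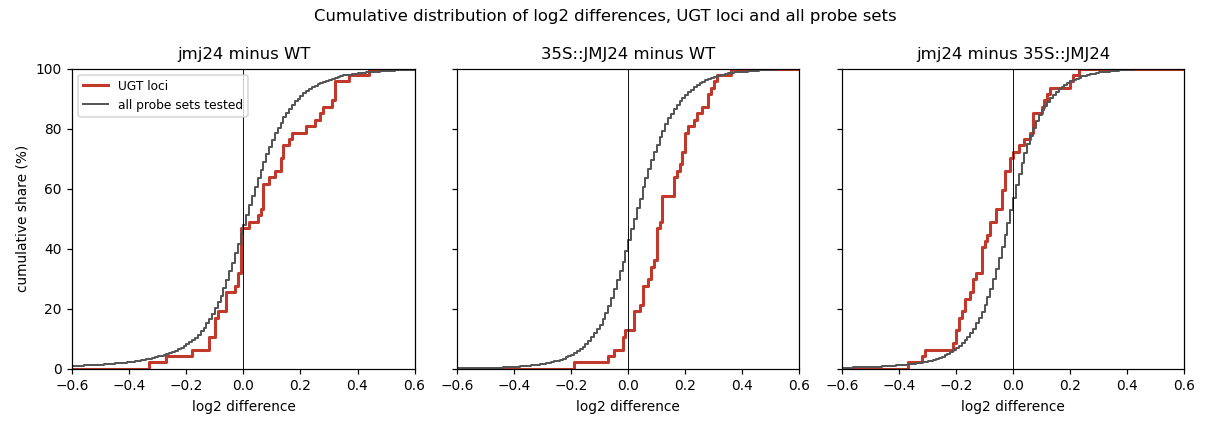
Cumulative share (%) of the 47 UGT loci (red) and of all 22746 probe sets tested (grey) against the log2 difference, 1 panel per comparison. The UGT curve lies to the right of the grey one in 35S::JMJ24 minus WT, with medians of 0.111 and 0.0202, and to its left in jmj24 minus 35S::JMJ24, with medians of -0.0681 and -0.0167.

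The loci highest in 35S::JMJ24 relative to WT included a pair of neighbours on chromosome 2. UGT73B5 (AT2G15480), which takes part in the hypersensitive response to bacteria, read 7.88, 8.31 and 7.87 in jmj24, 8.31, 8.44 and 8.46 in 35S::JMJ24, and 7.91, 8.11 and 8.11 in WT. The 35S::JMJ24 values lay above all WT values, while jmj24 replicate 2 stood above the other jmj24 arrays. The log2 difference of 35S::JMJ24 from WT was 0.36 (SE 0.12, 1.28-fold, limma adjusted p 0.602). UGT73B4 (AT2G15490), which can conjugate the explosive TNT, read 7.44, 7.53 and 7.25 in jmj24, 7.55, 7.57 and 7.72 in 35S::JMJ24, and 7.41, 7.38 and 7.25 in WT. The 3 highest values were those of 35S::JMJ24, and the log2 difference from WT was 0.27 (SE 0.0888, limma adjusted p 0.595). UGT73B1, the third measured locus of the subgroup, had a log2 difference of 0.05.

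UGT87A2 (AT2G30140) read 10.77, 10.95 and 10.81 in jmj24, 11.03, 11.17 and 10.9 in 35S::JMJ24, and 10.71, 10.8 and 10.82 in WT. The 35S::JMJ24 values did not overlap with WT, and the log2 difference was 0.26 (SE 0.0842, limma adjusted p 0.596). UGT76B1 differed from WT by 0.29 (limma adjusted p 0.623), UGT71C4 by 0.23 (adjusted p 0.527) and UGT85A2 by 0.23 (adjusted p 0.639), each without overlap. UGT73D1 differed by 0.3 (adjusted p 0.645) with overlap, and by 0.17 without WT replicate 1. UGT71C1 (AT2G29750) read 5.88, 5.79 and 5.89 in jmj24, 6.06, 5.92 and 5.79 in 35S::JMJ24, and 5.6, 5.76 and 5.79 in WT, and it differed by 0.2 (adjusted p 0.645). On 4 of the 9 arrays UGT71C1 was above the background mark. UGT74B1 was lower in 35S::JMJ24 by a log2 difference of -0.2 (limma adjusted p 0.661), without overlap.

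Set side by side, the log2 differences from WT were 0.44 in jmj24 and 0.23 in 35S::JMJ24 for UGT85A2, 0.36 and 0.29 for UGT76B1, 0.27 and 0.23 for UGT71C4, 0.32 and 0.2 for UGT71C5, 0.31 and 0.12 for UGT72E1, and -0.34 and -0.2 for UGT74B1. The same 3 WT arrays stand behind both values of a locus, and the value of 0.12 for UGT72E1 was 0.06 without WT replicate 1 and 0.21 without WT replicate 3. UGT76E12, with -0.27 in jmj24 and 0.04 in 35S::JMJ24, UGT76E11, with -0.13 and 0.2, and UGT78D2, with -0.11 and 0.01, had means on opposite sides of WT. Their SEs were 0.195, 0.181 and 0.0805, and the interval of each value included 0, so the side was not settled for any of them. The jmj24 values of UGT76E12 and UGT76E11 also leaned on WT replicate 1. It read 6.69 for UGT76E12, against 6.02 and 5.98 on WT replicates 2 and 3. For UGT76E11 it read 9.77, against 9.55 and 9.28. UGT73B5, with -0.02 in jmj24 and 0.36 in 35S::JMJ24, and UGT87A2, with 0.06 and 0.26, had a mean close to WT in jmj24.

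The comparison of jmj24 with 35S::JMJ24 uses no WT array in the difference itself. Of the 47 loci, 13 had a higher mean in jmj24 (27.7%, against 43.0% of all probe sets), with a median log2 difference of -0.0681, against -0.0167. After a further quantile normalization 15 of 47 loci were higher in jmj24, against 50.8% of all probe sets, and without 35S::JMJ24 replicate 2 the number was 20 at a median of -0.0345. In limma 0 of 47 UGT loci had an adjusted p under 0.05, beside 0.246% of all probe sets, and 6 had an unadjusted p under 0.05, 2 higher and 4 lower in jmj24, beside 6.33% (1.8% higher and 4.53% lower). The values did not overlap in 5 loci, 1 higher and 4 lower in jmj24, beside 10.2% of all probe sets (3.02% higher and 7.14% lower).

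UGT73B5 had the largest log2 difference between the lines, -0.38 (SE 0.12, limma adjusted p 0.527), followed among the loci without overlap by UGT76E12 at -0.31 (adjusted p 0.895), UGT73B4 at -0.21 (adjusted p 0.758) and UGT71C2 at -0.2 (adjusted p 0.709). For UGT73B5 and UGT76E12 the nearest values of both lines were equal to 2 decimals (8.31 and 6.16), and UGT73B4 was at -0.13 without jmj24 replicate 3. UGT71C2 (AT2G29740) read 5.98, 6.03 and 6.14 in jmj24, 6.23, 6.15 and 6.35 in 35S::JMJ24, and 5.96, 6.14 and 6.09 in WT, so the 35S::JMJ24 values were the 3 highest by a small margin. UGT76E11 (AT3G46670) read 9.45, 9.73 and 9.05 in jmj24, 9.94, 9.67 and 9.57 in 35S::JMJ24, and 9.77, 9.55 and 9.28 in WT. Its values spread widely within each genotype, and the log2 difference of -0.32 (SE 0.181, limma adjusted p 0.878) lay between -0.48 and -0.14 over 17 alternative settings. UGT71C3 was the only locus higher in jmj24 without overlap, at a log2 difference of 0.23 (adjusted p 0.771), and UGT85A2 was higher by 0.21 (adjusted p 0.759). UGT87A2 had a log2 difference of -0.19 (adjusted p 0.786; -0.12 without 35S::JMJ24 replicate 2) and UGT72E1 one of 0.19 (adjusted p 0.849). The loci of groups 74, 78 and 84 all had a lower mean in jmj24 than in 35S::JMJ24, with medians of -0.114, -0.119 and -0.111.

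**Figure D4:**
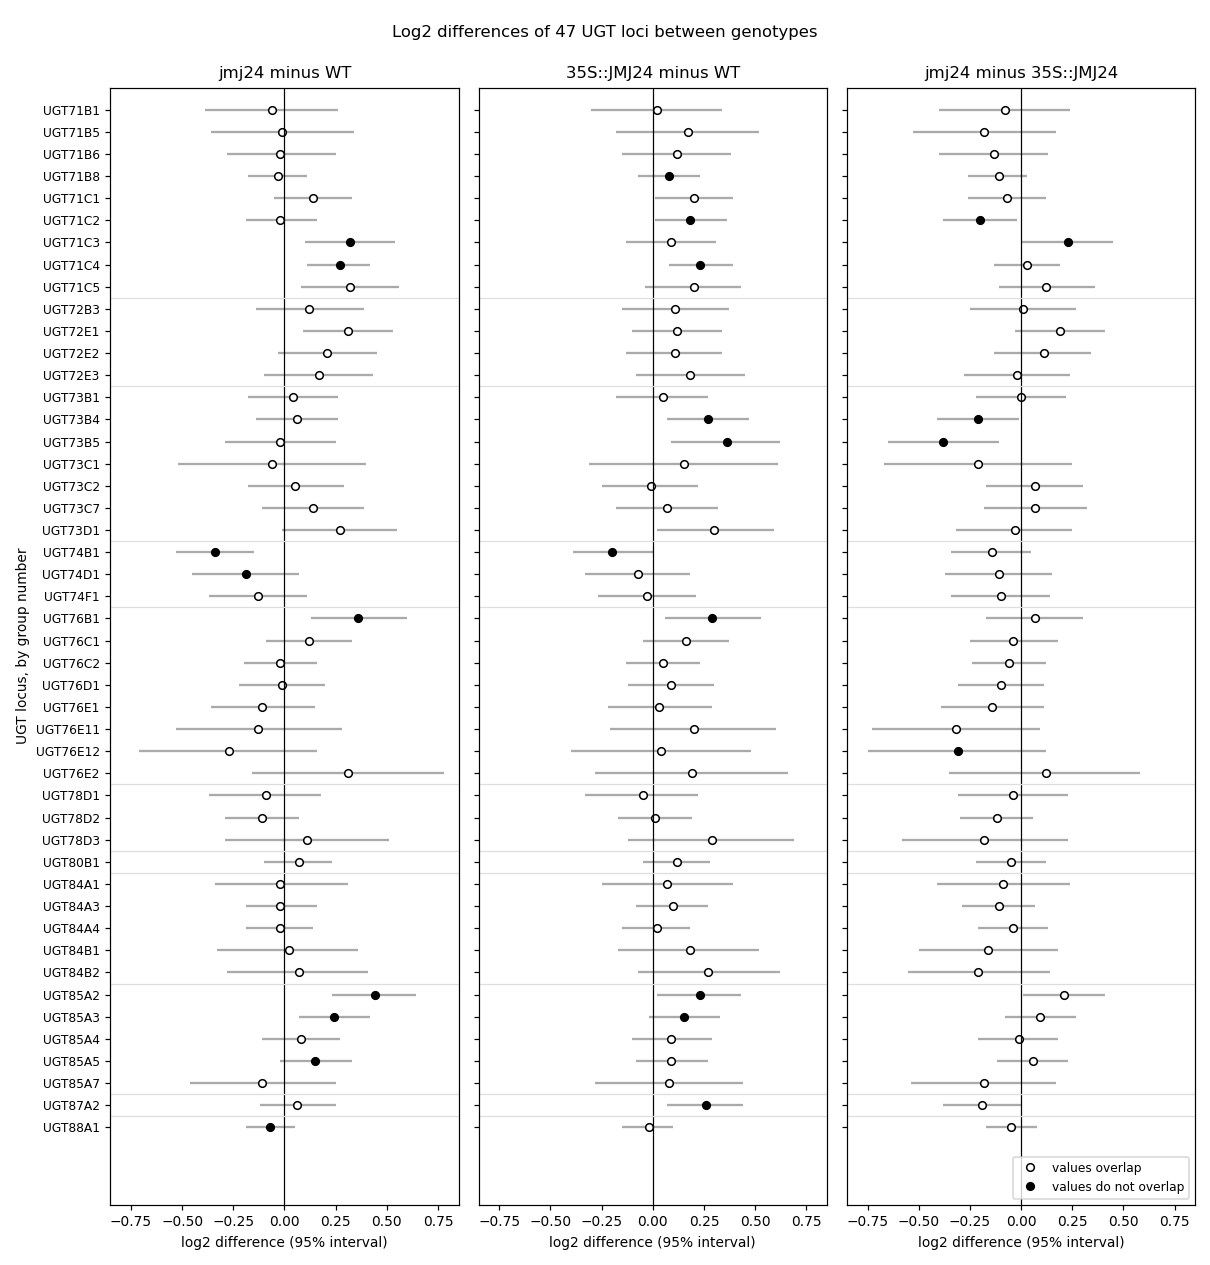
Log2 difference (points) with its 95% interval (lines) for each of the 47 UGT loci by group number, in jmj24 minus WT, 35S::JMJ24 minus WT and jmj24 minus 35S::JMJ24. Filled points mark loci whose 3 and 3 values do not overlap (9, 10 and 5 loci), and no point reaches 1.5-fold (0.585 on the log2 scale).

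The intervals give the size of difference that these arrays allow. A 95% interval for each locus was set against a 1.5-fold difference in either direction. The whole interval lay inside this range for 43 of 47 loci in jmj24 minus WT, 40 in 35S::JMJ24 minus WT and 43 in jmj24 minus 35S::JMJ24. The loci whose interval reached 1.5-fold in jmj24 minus WT were UGT85A2, UGT76B1, UGT76E2 and UGT76E12. The standard error of a log2 difference ran from 0.055 for UGT88A1 to 0.208 for UGT76E2, with a median of 0.105 over the family, against 0.0923 over all probe sets. A moderated F test over the 3 genotypes in limma also gave 0 of 47 loci at an adjusted p under 0.05, beside 0.708% of all probe sets, and 11 loci at an unadjusted p under 0.05, beside 9.46%.

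Many UGT genes lie beside each other, and close copies may bind each other's probes. With neighbours defined as loci within 2 genes in the RefSeq order, 30 of the 47 loci fell into 13 clusters, 10 of 2 loci, 2 of 3 and 1 of 4. On chromosome 1, UGT71C5, UGT71C4 and UGT71C3 had log2 differences of 0.32, 0.27 and 0.32 in jmj24 minus WT and 0.2, 0.23 and 0.09 in 35S::JMJ24 minus WT. In the cluster of 4 on the same chromosome, UGT85A7, UGT85A2, UGT85A5 and UGT85A3 had log2 differences of -0.11, 0.44, 0.15 and 0.24 in jmj24 minus WT and 0.08, 0.23, 0.09 and 0.15 in 35S::JMJ24 minus WT. Neighbours did not always lie together: UGT76E2 and UGT76E1 on chromosome 5 had 0.31 and -0.11 in jmj24 minus WT. All members of a cluster lay on the same side of 0 in 6 of 13 clusters in jmj24 minus WT. This held for 12 in 35S::JMJ24 minus WT, where most loci of the family were higher anyway. It held for 9 in jmj24 minus 35S::JMJ24, where 34 of the 47 loci were lower anyway. Whether neighbours shared a side more often than other loci of the family was not tested. How far shared probe binding enters these values was not tested.

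**Figure D5:**
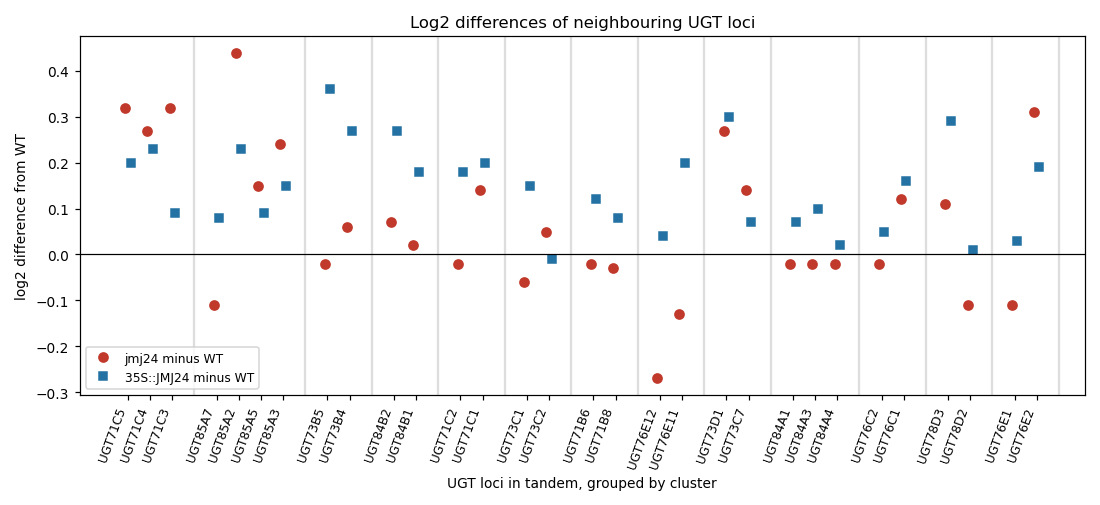
Log2 difference from WT of the 30 UGT loci in 13 clusters of neighbouring genes (x axis, clusters separated by grey lines) for jmj24 (red circles) and 35S::JMJ24 (blue squares). The 3 UGT71C loci at the left lie at 0.27 to 0.32 in jmj24, and UGT85A2 has the largest value of all, 0.44.

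Genes that make or release the small molecules on which UGTs act were counted in the same fit. Of 20 beta-glucosidases measured, 1 passed in jmj24 against WT, beside 1.14% of all probe sets, and it was lower: BGLU45 (AT1G61810), which releases monolignols from their glucosides. BGLU45 read 7.42, 7.35 and 7.34 in jmj24, 8.15, 7.98 and 7.9 in 35S::JMJ24, and 8.02, 7.9 and 8.05 in WT. The jmj24 values were clearly below all others, with log2 differences of -0.62 from WT (SE 0.078, limma adjusted p 0.00616) and -0.64 from 35S::JMJ24 (limma adjusted p 0.0148). The call against WT was lost without the 3 arrays numbered 1 (adjusted p 0.0745, log2 difference again -0.62), and the call against 35S::JMJ24 was lost in 6 of 16 alternative settings, with adjusted p up to 0.244. In jmj24 against 35S::JMJ24 it was again 1 of the 20 that passed, BGLU45, beside 0.246% of all probe sets. At an unadjusted p under 0.05 in limma there were 5 in jmj24 against WT (11.7% of all probe sets), 1 in 35S::JMJ24 against WT (7.43%) and 5 in jmj24 against 35S::JMJ24 (6.33%). The 20 beta-glucosidases had a median log2 difference of -0.0963 in jmj24 minus WT, against 0.00609 for all probe sets.

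Of 13 glutathione S-transferases, which conjugate many of the same foreign compounds, limma called 0 in every comparison. At an unadjusted p under 0.05 there were 3 in jmj24 against WT (11.7% of all probe sets), 2 in 35S::JMJ24 against WT (7.43%) and 0 in jmj24 against 35S::JMJ24 (6.33%). GSTU20 had log2 differences of -0.41 in jmj24 and -0.39 in 35S::JMJ24 from WT, and GSTU28 had 0.4 and 0.36. Of 5 measured genes of auxin conjugation and oxidation, limma called 0 in every comparison. At an unadjusted p under 0.05 there were 1 in jmj24 against WT (11.7% of all probe sets), 2 in 35S::JMJ24 against WT (7.43%) and 0 in jmj24 against 35S::JMJ24 (6.33%). Their median log2 difference was 0.0205 in jmj24 minus WT and 0.214 in 35S::JMJ24 minus WT. AT1G14130 had log2 differences of 0.2 in jmj24 and 0.26 in 35S::JMJ24 from WT, and GH3.1 had 0.16 and 0.3. Only DFR, which makes anthocyanin precursors, was measured under its name among 7 flavonoid genes, with log2 differences of 0.0 in jmj24 and -0.13 in 35S::JMJ24 from WT. Genes listed for phenylpropanoid, glucosinolate, salicylic acid, abscisic acid, cytokinin and brassinosteroid metabolism, nucleotide sugar supply and vacuolar transport had no single-gene probe set named here and were not analysed.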

How the data were processed

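The deposited table holds log2 signal of 22810 ATH1 probe sets on 9 arrays; per the submitters' processing notes the authors used the affy package, with version and normalization not stated. The table was used as deposited, without 64 control probe sets and with no filter on low values. Probe sets were named from the platform annotation (13513 with 1 gene, 503 with several, 8730 with none) and matched to the RefSeq table (TAIR10.1), which served only for names and gene order. limma 3.58.1 in R 4.3.3 fitted 1 mean per genotype over all 9 arrays, and p-values (two-sided) were adjusted by the Benjamini-Hochberg method over 22746 probe sets. On simulated data for jmj24 against WT over these probe sets, it recovered 65% of 100 changes of log2 0.5 and 98% of 100 of log2 1. The simulated noise was independent and of equal size on all arrays, unlike the deviations of the real ones. No UGT difference was as large as log2 0.5, so these rates do not give the recovery of the UGT differences described.

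Members and gene lists were chosen with earlier results of these data known. Named loci were the 5 given family markers (UGT73D1, UGT72E1, UGT85A2, UGT76B1, UGT71C4), those past the threshold, the 10, 8 and 8 with the smallest p in jmj24 against WT, 35S::JMJ24 against WT and jmj24 against 35S::JMJ24, the highest and lowest of each group, and tandem neighbours. Of the other lists, members past the threshold or up to 2 by smallest p were named. Same-numbered jmj24 and 35S::JMJ24 arrays deviated together (correlations 0.427, 0.173 and 0.171), which meets the rule for pairs, whereas with WT 1 correlation was 0.058 for jmj24 and 0.014 for 35S::JMJ24. All p-values in the results are from the fit without a block, also those of jmj24 against 35S::JMJ24. The block over all 9 arrays was an alternative. A fit of jmj24 and 35S::JMJ24 alone with a block was not run. Alternatives covered scaling, filtering, array weights, a variance trend, a replicate block, fits of 2 genotypes, and arrays left out.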

Additional observations from a re-analysis of the deposited data

How the results depend on the processing

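Of 32 named results tried under 16 or 17 alternatives each (532 values), 30 kept their direction throughout. The 3 reversals were in jmj24 minus 35S::JMJ24, where UGT73D1 gave 0.0 without jmj24 replicate 1 and 0.02 without 35S::JMJ24 replicate 2, and UGT71C4 gave -0.04 without 35S::JMJ24 replicate 3 (with single arrays left out, UGT73D1 ranged from -0.1 to 0.02 and UGT71C4 from -0.04 to 0.07); the cause was not tested. The count of UGT loci past the threshold in jmj24 against WT was 0 as reported, 1 without the dimmer 50% of probe sets, 1 with a mean-variance trend, 0 to 1 with single arrays left out (1 without jmj24 replicate 1) and 1 with the replicate block, in each case UGT85A2. It was 4 with array weights (UGT85A2, UGT71C3, UGT74B1 and UGT76B1), which gave the WT arrays weights of 0.514, 3.68 and 0.832, so that WT replicate 2 counted most. The replicate block also gave 1 locus in the F test and changed no other UGT call (UGT73B5 in jmj24 against 35S::JMJ24 had an adjusted p of 0.241 with it). With WT the same-numbered correlations were 0.438, 0.058 and 0.303 for jmj24, and 0.418, 0.014 and 0.207 for 35S::JMJ24. WT replicate 1 correlated negatively with replicates 2 and 3 of jmj24 (-0.28 and -0.195) and of 35S::JMJ24 (-0.221 and -0.201). Among the WT arrays, jmj24 replicate 2 correlated best with WT replicate 3 (0.271). Whether equal numbers mark a shared set of arrays with WT was not tested. With single arrays left out, the family median lay between -0.00492 and 0.0626 in jmj24 minus WT, 0.0759 and 0.144 in 35S::JMJ24 minus WT, and -0.106 and -0.0345 in jmj24 minus 35S::JMJ24.

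Counts over all probe sets in jmj24 against WT were 259 as reported, 607 with the block, 641 with weights, 146 in a fit of these genotypes alone, 53 without the arrays numbered 1 and 124 to 229 with 1 array left out. In 35S::JMJ24 against WT the count of 4 became 8 with weights, 1 without the arrays numbered 1, and 2 to 4 with 1 array left out. In jmj24 against 35S::JMJ24 the count of 56 became 19 in a fit of these genotypes alone, 2 without the arrays numbered 1, 14 to 44 with 1 array left out and 76 with the block. Averaging several probe sets of a locus was not run, because no UGT locus has more than 1. The number of arrays, 3 per genotype, limits the precision.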

Other observations

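Some probe sets carry exactly the same value, to the digits deposited, on more than 1 array. This held for 13 of 47 UGT loci (27.7%), against 40.3% of all probe sets. For 3 or more arrays it held for 2 UGT loci (4.26%), against 13.8% of all probe sets. These loci were UGT80B1, with 1 value on 4 arrays, and UGT71C1, with 1 value on 3 arrays, and both were picked out after their values were seen. The identical readings of UGT80B1 came from arrays of both JMJ24 lines, and it read 8.35, 8.34 and 8.34 in jmj24, 8.34, 8.34 and 8.5 in 35S::JMJ24, and 8.39, 8.21 and 8.22 in WT.

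UGT76E loci were among those with the widest spread within a genotype. UGT76E2 read 6.68, 7.3 and 6.98 in jmj24, 6.81, 7.11 and 6.7 in 35S::JMJ24, and 6.3, 6.67 and 7.06 in WT, with an SD of 0.31 in jmj24, 0.21 in 35S::JMJ24 and 0.38 in WT. UGT76E12 read 6.05, 6.16 and 5.67 in jmj24, 6.16, 6.44 and 6.22 in 35S::JMJ24, and 6.69, 6.02 and 5.98 in WT. WT replicate 1 was thus the lowest of all 9 arrays for UGT76E2 and the highest for UGT76E12.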
